A study of Mus musculus with 15 samples.

Results

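The 6 arrays described here, of 15 in the series, measured uterine RNA of mice 2 hr or 24 hr after 1 injection of estriol (E3), with 3 arrays for each time. The arrays were taken by their labels, and the question was which transcripts had returned toward the saline level by 24 hr and which differed from it only then. All mice were ovariectomized adult females (10 weeks or older) that rested for 10 to 14 days before an intraperitoneal injection in 100 µl saline. The E3 mice received 250 ng and carry the strain label C57bl6/J. Saline and E2 arrays serve as reference. The 3 saline arrays (C57bl6/J) were collected at 24 hr and are the control for both times, so anything that the injection, the handling or the time of day did by 2 hr cannot be told apart from E3. The 6 arrays of 17β-estradiol (E2, 250 ng) comprise 3 at 24 hr (C57bl6/J) and 3 at 2 hr, which are labelled C57bl6/Jx129 with a WT *Esr1* genotype and were hybridized on other slides and read on another scanner. The extraction protocol describes each uterus as homogenized by itself whereas the methods of the study describe pooled tissue, so p-values measure the spread between these samples, which may be technical.

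The ovariectomized uterus has little estrogen of its own, and a single injection starts a response in phases. Estrogen receptor α in stroma, epithelium and muscle first changes the transcription of regulators such as immediate early transcription factors, signaling ligands and feedback inhibitors. Epithelial cells later copy their DNA, divide and secrete. E3 is a weak, short-acting estrogen that leaves the receptor sooner than E2 does, and the interval from 2 to 24 hr is where short-acting and long-acting estrogens are known to part.

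All values are on a log2 scale, as the signal of a probe over the 75th percentile of its array, and a difference is the E3 24 hr mean minus the E3 2 hr mean unless another pair is named. A probe was called when its limma p-value was below 0.001 and its difference at least 2-fold. Of 34749 probes tested, 5604 (16.1%) were called between the times, 3356 (9.66%) higher and 2248 (6.47%) lower at 24 hr. The median difference over all tested probes was 0.124. With normexp background correction that median was 0.496, and 3237 probes were called, 2211 higher and 1026 lower. All 3 E3 arrays at 2 hr shared 1 slide with saline replicate 3, and all 3 at 24 hr sat on another, so slide and time cannot be told apart.

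Before the genes, the arrays themselves were compared for transcripts of other tissues. A list of 44 pancreas transcripts had a summed level (in multiples of the 75th percentile of the array) of 1690 on E3 2 hr replicate 2, 49.2 on replicate 3 and 5.61 on replicate 1, against 2.73 to 3.34 at 24 hr and 4.07 to 4.54 after saline. Replicate 2 at 2 hr thus stood apart from the other E3 and saline arrays. Of the E2 arrays used as reference below, replicate 2 at 24 hr had a sum of 819 and replicate 3 a sum of 21.3, and the other 4 had 2.49 to 8.22. The sum of 114 lymphocyte transcripts was 199, 240 and 500 at 2 hr and 100.0, 92.0 and 404 at 24 hr, with replicate 3 the highest at each time. That of 129 liver transcripts was 20.7 to 32.9 at 2 hr, 27.9 to 33.0 at 24 hr and 33.9 to 83.9 after saline. Of these 129, 24 were called lower and 7 higher between the times, with a median of -1.22, and 68 were called below saline at 24 hr. Members of these 3 lists were set aside from the classes below. The 18 myeloid transcripts lay between 75.5 and 139 on the E3 arrays and none was called, nor were any of 12 fat and 3 red blood cell transcripts. The fat sums varied between arrays, with 39.6, 104 and 67 at 2 hr and 90.2, 45.7 and 19.1 at 24 hr.

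**Figure D1:**
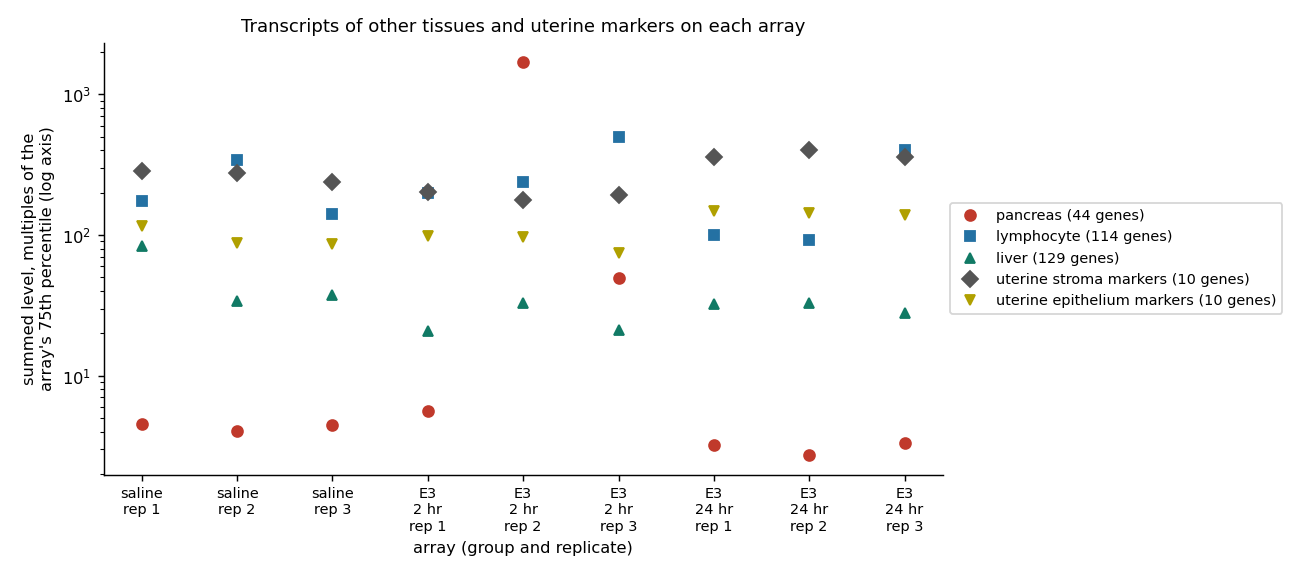
Summed level of 5 marker lists (log axis, multiples of the array's 75th percentile) on each saline and E3 array, 1 symbol per list and array. The pancreas list reached 1690 on E3 2 hr replicate 2, and the stroma markers were higher on the 3 arrays at 24 hr than on the 3 at 2 hr.

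Markers of the uterus were present on all 6 arrays and higher at 24 hr. The summed level of 10 stroma markers was 177 to 202 at 2 hr, 358 to 399 at 24 hr and 239 to 287 after saline, and 8 of the 10 were called higher, where 10.1% of all genes were. For 10 epithelial markers the sums were 74.7 to 97.8 at 2 hr and 139 to 147 at 24 hr, with 2 called higher, and for 10 myometrial markers 327 to 333 and 428 to 531, also with 2 called. In whole uteri, fewer cells of a type and less RNA per cell cannot be told apart. Of 12 skeletal muscle transcripts, 4 were called higher, and the sum over the 12 went from 6.72 to 7.4 at 2 hr to 15.3 to 17.9 at 24 hr (8.08 to 9.22 after saline). Of these, *Tnni2* (fast troponin I) lay at 1.09, 1.20 and 1.07 at 2 hr and at 3.05, 3.04 and 3.27 at 24 hr. What part a change in cell makeup has in the classes below was not tested.

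The called probes were sorted into classes by whether they also passed the cutoffs against saline at 2 hr or at 24 hr. A transcript that rose at 2 hr and was called lower at 24 hr than at 2 hr "fell back" (1332 probes), the reverse "recovered" (1964 probes), and those called against saline only at 24 hr "rose late" (390 probes) or "fell late" (138 probes). Against saline, 4.68% of all tested probes were called higher and 9.11% lower at 2 hr, and 1.85% and 1.96% at 24 hr. By genes the shares were 4.66% and 7.82% at 2 hr and 2.24% and 1.65% at 24 hr. The 3 contrasts share arrays, and the classes are read from them as a description. The median of the transcripts that fell back was 1.64 above saline at 2 hr and 0.11 below it (-0.11) at 24 hr, and that of the transcripts that recovered was -1.65 and -0.11. Of the 1622 probes higher than saline at 2 hr, 82.1% were called back toward saline by 24 hr, as were 62.3% of the 3152 lower ones. Movement further from saline was called for 3 probes above it, a pair for *Crtac1* and 1 for *Rhd* (1.49, a call lost with normexp background correction), and for 1 probe below it, of *Cyp2j5*, whose brighter probe was not called. The remaining 1736 called probes, 991 higher and 745 lower at 24 hr, differed between the times without passing the cutoffs against saline in the same pattern.

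**Figure D2:**
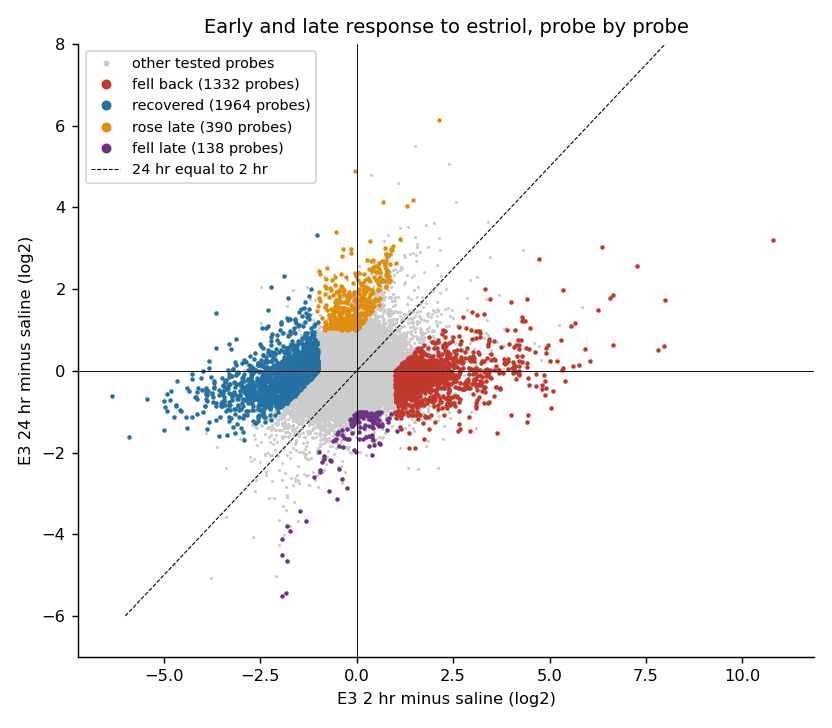
E3 2 hr minus saline (horizontal axis, log2) against E3 24 hr minus saline (vertical axis, log2), 1 point per tested probe, colored by class. On the horizontal axis the probes that fell back have a median of 1.64 and those that recovered -1.65, and on the vertical axis both medians are -0.11, where 1287 of the 1332 and 1905 of the 1964 were not called against saline. The 390 probes that rose late and the 138 that fell late were called against saline on the vertical axis only.

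Compared only with the saline array of the same slide, which is also 1 of the 3 that chose these probes, the early change had a median of 1.66 in the class that fell back and -1.70 in the class that recovered. Normexp background correction gave 715, 968, 311 and 12 probes in the 4 classes, of which 706, 928, 265 and 9 were in the same class without it. The class that fell late held 84 probes without E3 24 hr replicate 3.

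Immediate early genes, which respond to a signal without new protein synthesis, returned as a group. Of 30 tested, 24 were called lower at 24 hr (5.8% of all genes were) and none higher, with a median of -2.16 against 0.17 for all genes. *Fos*, a subunit of the AP-1 factor (probe at chr12:83478431-83478490 in mm7, the mouse build named by the array files), lay at 3.13, 2.68 and 2.59 on the E3 2 hr arrays, at -1.75, -2.04 and -1.39 at 24 hr and at -2.70, -2.52 and -2.24 after saline. The groups did not overlap, as was the case between the times for 62.8% of all genes, and *Fos* fell by 4.53 ± 0.226 (SE, 3 arrays against 3, adjusted p = 3e-08 by limma). *Nr4a1*, an orphan nuclear receptor, went from 5.27, 5.17 and 4.76 to 1.58, 1.37 and 1.63, beside 1.53, 1.44 and 1.53 after saline, so that the 24 hr arrays spanned the saline values. *Egr4* (-6.02), *Cyr61* (-4.22), *Egr3* (-4.13) and *Fosl1* (-3.92) were also called lower. The other probe of *Egr3* (-2.11) and, with normexp background correction, *Fosl1* (-1.51) were not. *Klf6* (-0.17) and *Ctgf* (-0.27) were not called, and neither had been called against saline at 2 hr.

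The promoters of a pair of these factors, chosen after their values were seen, show the letters through which immediate early genes are known to be switched on. The 250 bases before the transcription start, from RefSeq on GRCm38.p6, are printed with the motif in capitals. In *Zfp36*, which encodes an RNA-binding protein that destabilizes cytokine mRNAs (chr7:28379229-28379478, minus strand), they mark a CArG box, the site of serum response factor, 58 to 49 bases before the start. In *Maff*, a small Maf factor (chr15:79347270-79347519, plus strand), they mark a cAMP response element, TGACGTCA.
Zfp36: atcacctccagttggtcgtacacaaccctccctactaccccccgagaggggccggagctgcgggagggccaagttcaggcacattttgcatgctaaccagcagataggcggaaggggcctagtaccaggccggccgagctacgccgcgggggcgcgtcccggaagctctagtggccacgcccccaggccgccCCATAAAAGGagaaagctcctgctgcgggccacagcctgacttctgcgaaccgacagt
Maff: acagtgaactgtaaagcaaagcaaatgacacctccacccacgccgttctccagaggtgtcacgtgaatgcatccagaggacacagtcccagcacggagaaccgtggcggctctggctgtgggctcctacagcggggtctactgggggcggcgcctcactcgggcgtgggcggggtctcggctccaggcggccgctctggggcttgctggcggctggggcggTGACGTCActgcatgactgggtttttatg
*Zfp36* went from 1.74, 1.58 and 1.63 at 2 hr to -0.94, -0.81 and -0.34 at 24 hr, and *Maff* from 2.51, 2.48 and 2.44 to -0.58, -0.82 and 0.00. Both returned to or below their saline arrays. Read on both strands, a CArG box was in a promoter of 3 of the 22 immediate early genes with a RefSeq promoter (13.6%) and of 1.62% of all 27025 genes. The letters TGACGTC, the core of the cAMP response element, were in 4 of the 22 (18.2%) and in 3.16% of all genes. Among the 626 named genes with a promoter in the class that fell back, 7.67% held that core, whereas 1.12% held a CArG box. That class holds 22 of the 30 immediate early genes tested, so the sets overlap. The palindromic estrogen response element was found in none of these windows and in 0.0666% of all genes.

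Inhibitors that damp receptor signaling returned with them. Of 24 feedback inhibitors, 13 were called lower and 1 higher, beside 5.8% and 10.1% of all genes. *Socs1* (-3.65) and *Socs3* (-3.30), which block cytokine receptors, and *Errfi1* (-3.41), which blocks the EGF receptor, fell back. The exception was *Rgs2*, a brake on G protein signaling, which had been repressed at 2 hr and was called higher at 24 hr (2.42). Among 13 growth arrest genes 7 were called lower and none higher. *Gadd45g* lay at 6.37, 6.65 and 6.53 at 2 hr and at 2.85, 2.71 and 2.77 at 24 hr, and *Plk2* (-3.71) and the cyclin-dependent kinase inhibitor *Cdkn1a* (-2.57) were lower as well.

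Of 38 growth factor ligands, 8 were called lower and 4 higher, the latter near the share among all genes. *Inhbb*, the β subunit of activin B and inhibin B, went from 5.86, 5.96 and 5.91 at 2 hr to 1.49, 1.5 and 1.80 at 24 hr (saline 1.86, 1.55 and 1.71), a difference of -4.31 ± 0.13. *Gdf15* (-5.40) and the EGF family ligand *Hbegf* (-3.09) fell back in the same way, as did the vascular ligands *Pgf* (-5.48) and *Vegfa* (-3.64). *Hgf*, hepatocyte growth factor, was among the 4 called higher. It lay at -3.36, -3.50 and -3.27 at 2 hr and at -0.25, -0.51 and -0.06 at 24 hr, below its saline arrays (0.13, 0.16 and 0.01) by 0.37 and not called against them. Other probes of *Hgf* were called higher by 1.49, 1.49 and 2.78, so the probes disagree on the size. The call of *Fgf7* (1.81), which acts on epithelium, was lost without E3 24 hr replicate 2 or E3 2 hr replicate 1 (1.57 and 1.63).

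In a list of 44 Wnt genes 8 were called higher and 5 lower, and in 45 genes of the Notch, hedgehog and BMP pathways and of growth factor receptors 4 and 7, beside 10.1% and 5.8% of all genes. *Wnt4*, a ligand needed for the stroma to decidualize, went from 2.99, 2.97 and 2.77 to -1, -0.98 and -1.33, which was below every saline array (0.12, -0.49 and -0.20) but not called against them. The Wnt amplifier *Rspo3* went from -3.50, -3.75 and -3.58 to -0.37, -0.36 and -0.72, and the receptor *Fzd1* was 2.39 higher. *Ihh*, the hedgehog ligand of the epithelium, was among 33 probes of the fell-back class that were called below saline at 24 hr. It lay at -0.99, -0.82 and -1.35 at 2 hr, -4.02, -4.18 and -4.71 at 24 hr and -2.19, -2.35 and -2.68 after saline, so that no group overlapped another. Its receptor *Ptch1* was repressed at 2 hr (-4.94, -5.30 and -5.03) and remained below saline (-2.14, -2.30 and -2.05) at 24 hr (-3.70, -3.79 and -4.07), with a called difference from saline at both times (-2.93 and -1.69). The return of *Ptch1* (1.24) was not called without E3 24 hr replicate 1, E3 24 hr replicate 2 or E3 2 hr replicate 2 (1.13 to 1.2), with normexp background correction (1.45, adjusted p = 0.017) or without scaling (1.16, adjusted p = 0.0075). The hedgehog targets *Gli1* (-0.66) and *Hhip* (0.76) were not called between the times. Both were chosen after their values were seen.

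**Figure D3:**
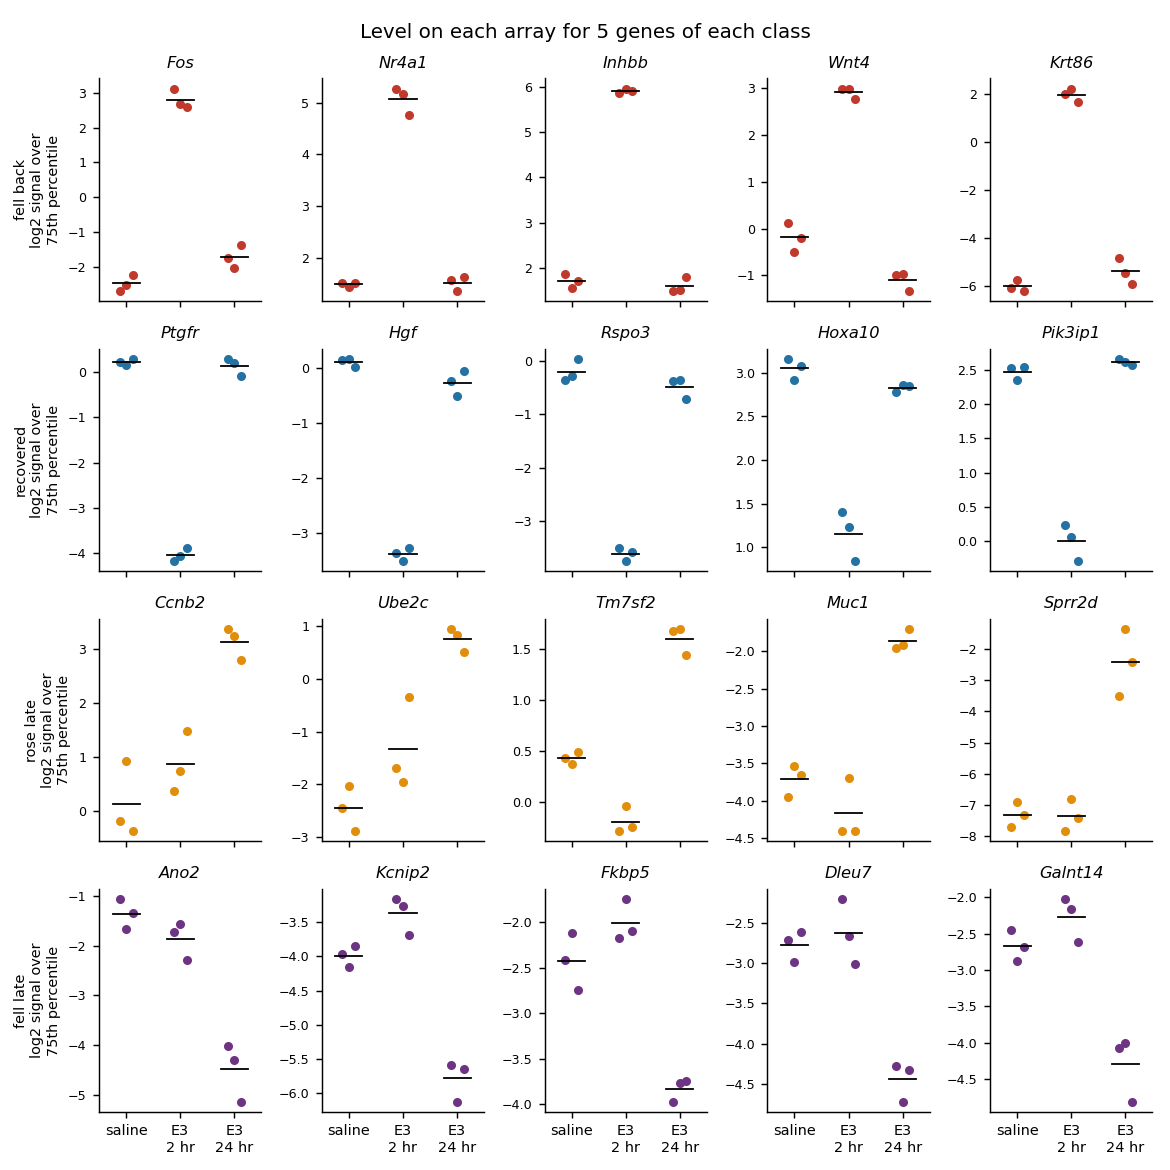
Level of 5 genes of each class on the 3 saline, 3 E3 2 hr and 3 E3 24 hr arrays (log2 signal over the 75th percentile), points for arrays and bars for group means. *Fos* and *Inhbb* are high at 2 hr only, *Ptgfr* and *Hgf* low at 2 hr only, *Ccnb2* and *Tm7sf2* high at 24 hr, and *Ano2* and *Kcnip2* low at 24 hr.

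Outside the lists set aside, the 3 largest falls of a named gene belonged to hair keratins. *Krt85* lay at 3.01, 3.09 and 2.56 at 2 hr, -3.64, -4.66 and -5.79 at 24 hr, and -8.23, -7.33 and -8.12 after saline. It fell by 7.58 ± 0.453 and was 1 of 12 probes of the class still called higher than saline at 24 hr, though its saline arrays lay near the lowest measurable level (-8.29 to -7.99), so the size of that difference is uncertain. *Krt86* (-7.36) and *Krt87* (-7.32) are near-identical neighbors whose probes differed by at most 0.62 on any of the 15 arrays, so their signals cannot be separated. The water channels *Aqp8* (-5.24) and *Aqp5* (-3.50) fell back as well and were not called against saline at 24 hr. *Oxtr*, the oxytocin receptor, was also called lower (-3.68), as was the progesterone receptor *Pgr* (-2.02, with -4.23 on its other probe).

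Of 40 genes for building ribosomes, 18 were called lower (5.8% of all genes were), none higher and 22 neither, with a median of -0.91. *Rrp12*, an export factor for ribosomal subunits, lay at -2.02, -1.75 and -1.69 at 2 hr, -4.38, -4.23 and -3.96 at 24 hr and -3.42, -3.01 and -3.34 after saline. Its 24 hr arrays were the lowest of the 3 groups, without a called difference from saline. With normexp background correction its difference of -1.42 was not called. *Nolc1* (-2.28) and *Gnl3* (-2.25) moved likewise, whereas *Npm1*, the abundant nucleolar chaperone, differed by 0.47 and was not called. Of 20 clock genes 6 were called lower and 2 higher, the latter near the share among all genes (5.8% lower and 10.1% higher). *Nfil3* (-3.02) and *Per2* (-1.73, with -0.63 on its other probe, not called) were lower and *Dbp* (1.58) higher, and because saline was collected at 24 hr only, the hour of the day cannot be told apart from E3 at 2 hr.

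The class that recovered was larger and of another make-up. Of its 1964 probes, 37.8% carried RIKEN or cDNA clone names, compared with 16.4% of all tested probes, and 40.6% matched a RefSeq mRNA, compared with 61.5%. Its median level at 2 hr, where the class is low by its rule, was -4.76, compared with -2.21 for all probes. At 24 hr it was -3.06, compared with -2.15. Many of its members were thus measured near the dim end of the array at 2 hr. *Ptgfr*, the prostaglandin F receptor of the myometrium (chr3:151701401-151701460), lay at -4.17, -4.06 and -3.87 at 2 hr, at 0.29, 0.20 and -0.10 at 24 hr and at 0.22, 0.15 and 0.29 after saline, a difference of 4.17 ± 0.229 (adjusted p = 5.7e-08). The 24 hr and saline arrays overlapped. The serotonin receptor *Htr2a* was not well above background on any array at 2 hr and was at least 5.24-fold higher at 24 hr, a call that was lost with normexp background correction. Of 28 receptors and channels that govern contraction, 9 were called higher and 5 lower, beside 10.1% and 5.8% of all genes.

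Transcription factors that pattern the reproductive tract were part of this return. Of 46 steroid receptors and patterning factors, 11 were called higher and 5 lower, beside 10.1% and 5.8% of all genes. *Hoxa10*, needed for implantation, went from 1.40, 1.23 and 0.84 at 2 hr to 2.78, 2.86 and 2.85 at 24 hr (saline 3.16, 2.92 and 3.08), and *Hoxa11* (1.68), *Nr2f2* (1.72) and *Sox4* (2.34) moved in the same direction. *Hoxa10*, *Hoxa11* and *Nr2f2* are also among the stroma markers above. *Twist2* (-2.88) and *Sox9* (-2.68) were lower instead. Genes that accompany cell quiescence, many of them FoxO targets, were called higher in 9 of 22 and lower in none. *Sesn1*, a brake on mTORC1, lay at 1.34, 1.35 and 1.33 at 2 hr, 3.48, 3.58 and 3.47 at 24 hr and 3.48, 3.33 and 3.26 after saline. *Pik3ip1* (2.61), an inhibitor of PI3-kinase, and *Txnip* (1.64), which limits glucose uptake, behaved likewise.

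A minority of repressed transcripts overshot. Of the 1964 probes, 31 were called above saline at 24 hr and 28 were still below it. *Ifne*, the interferon of the reproductive tract epithelium, went from -7.15, -6.76 and -7 at 2 hr to -2.51, -2.91 and -2.45 at 24 hr, against -5.88, -6.12 and -5.82 after saline. The calcium channel *Trpv6* lay 1.88 below saline at 2 hr (-1.88) and 2.31 above it at 24 hr, and *Rnf186* was 2.04 above it.

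Genes of mitosis, the longest of the lists by function, had the highest count called higher of any list. By share the stroma markers stood above them (8 of 10). Of 58 tested, 36 were called higher than at 2 hr (10.1% of all genes were), with a median of 1.5. Against saline 49 were called higher at 24 hr (2.24% of all genes were). *Ccnb2*, cyclin B2 (chr9:70439814-70439873), lay at 0.37, 0.74 and 1.49 at 2 hr, at 3.37, 3.24 and 2.79 at 24 hr and at -0.17, 0.94 and -0.37 after saline. The 24 hr arrays lay above all 6 others, while the 2 hr and saline arrays overlapped, and *Ccnb2* rose by 2.27 ± 0.355 (adjusted p = 1.7e-04). *Ube2c*, the ubiquitin-conjugating enzyme that works with the anaphase-promoting complex, lay at -1.70, -1.97 and -0.35 and then at 0.95, 0.83 and 0.51 (not called with the 6 E3 arrays fitted alone, adjusted p = 0.0085), and *Cdca3* (2.11) and *Cenpf* (2.09) rose as well. For *Mki67* (1.35), *Aurkb* (1.35), *Cdk1* (1.27) and *Top2a* (1.06) the difference was not called. *Aurkb* and *Cdk1* were called higher than saline at 24 hr all the same. In the list, 14 genes were called higher than saline at 24 hr but not called between the times. On *Mki67*, *Aurkb*, *Cdk1* and *Top2a* replicate 3 was the highest of the 2 hr arrays, the array that also had the highest lymphocyte sum. At 24 hr replicate 3 again had the highest lymphocyte sum (404), but the lowest mean over the mitosis genes (0.44). Whether lymphocyte content has a part in these values was not tested. The mean over the 58 genes was -0.96, -0.78 and -0.08 at 2 hr and 0.99, 0.84 and 0.44 at 24 hr. The count of 36 was 23 when E3 24 hr replicate 1, E3 24 hr replicate 2, E3 2 hr replicate 1 or E3 2 hr replicate 2 was left out, and 19 with the 6 E3 arrays fitted alone. Without replicate 3 at 2 hr it was 48, *Mki67*, *Aurkb* and *Cdk1* among them. *Cdca3* lost its call when any E3 array but 2 hr replicate 3 was left out (1.69 to 2.23). *Mad2l1*, a spindle checkpoint gene, was the single mitosis gene called lower, falling from 3.23, 3.25 and 3.08 to 0.33, 0.16 and -0.31, still 1.23 above saline.

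Few genes of DNA replication were called at the same hour. Of 39 tested, 1 was called higher, *Tk1* (1.60), and none lower, with a median of 0.25. The call of *Tk1* was lost without E3 replicate 1 or 2 of either time (1.35 to 1.56), and without replicate 3 of either time 2 genes were called. By an adjusted p of 0.05 alone 18 were higher and 3 lower, where 19223 of all 34749 probes passed in either direction. The mean over the list was 0.16, 0.30 and 0.61 at 2 hr and 0.64, 0.72 and 0.57 at 24 hr, so the groups overlapped. *Mcm2*, a subunit of the replicative helicase, lay at -0.12, 0.25 and 0.54 and then at -0.12, 0.00 and -0.10, beside -0.04, 0.31 and 0.05 after saline, so that the 3 groups overlapped. *Mcm6* lay at 3.26, 3.44 and 3.59 at 2 hr and at 3.64, 3.76 and 3.76 at 24 hr, and *Mcm10* (0.56) and *Pcna* (-0.39) were not called either.

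Promoters are shown for a pair of mitosis genes and for *Mcm6*, chosen after their values were seen, because the sites known to control these groups can be read in them. For *Ccnb2* (chr9:70421555-70421804, minus strand) and *Ube2c* (chr2:164769679-164769928, plus strand) the capitals mark CCAAT boxes, bound by NF-Y, and the cell cycle homology region TTTGAA, both on either strand (ATTGG and TTCAAA in reverse). For *Mcm6* (chr1:128359706-128359955, minus strand) they mark E2F sites, TTTGGCGC or the same with C as the fourth base, of which a pair overlap.
Ccnb2: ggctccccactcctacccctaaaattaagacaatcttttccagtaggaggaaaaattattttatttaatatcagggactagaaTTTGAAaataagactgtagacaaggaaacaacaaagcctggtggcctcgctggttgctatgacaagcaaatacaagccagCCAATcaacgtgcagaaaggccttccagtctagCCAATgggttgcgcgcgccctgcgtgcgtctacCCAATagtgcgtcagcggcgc
Ube2c: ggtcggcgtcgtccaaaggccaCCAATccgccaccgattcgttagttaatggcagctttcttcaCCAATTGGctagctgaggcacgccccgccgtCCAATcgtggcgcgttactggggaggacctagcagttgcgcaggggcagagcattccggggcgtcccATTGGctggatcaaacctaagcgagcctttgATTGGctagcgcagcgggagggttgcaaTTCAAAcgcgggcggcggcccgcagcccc
Mcm6: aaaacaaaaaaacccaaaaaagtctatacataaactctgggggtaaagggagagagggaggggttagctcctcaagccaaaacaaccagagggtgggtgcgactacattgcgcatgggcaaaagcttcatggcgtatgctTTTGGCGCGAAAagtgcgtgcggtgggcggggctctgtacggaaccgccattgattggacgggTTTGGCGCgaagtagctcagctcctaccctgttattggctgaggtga
Of 47 mitosis genes with a RefSeq promoter, 35 held CCAAT (74.5%) and 18 TTTGAA (38.3%), compared with 37.5% and 18.3% of all genes. CCAAT was not particular to them, since 94.1% of 17 cholesterol synthesis genes and 58.8% of 34 DNA replication genes held it, and the *Mcm6* window has it as well, not capitalized here. Of the 34 DNA replication genes, 6 held an E2F site (17.6%), compared with 0.759% of all. In the 206 named genes with a promoter in the class that rose late the shares were 52.4% for CCAAT and 26.2% for TTTGAA. That class holds 34 of the 58 mitosis genes tested, so the sets share promoters. These are letters in a window, and no binding was measured.

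Of 25 genes for cholesterol synthesis and uptake, 9 were called higher and none lower, 5 of them in the class that rose late. *Tm7sf2*, a sterol reductase, lay at -0.29, -0.04 and -0.25 at 2 hr, 1.68, 1.7 and 1.44 at 24 hr and 0.43, 0.37 and 0.49 after saline, so that the 24 hr arrays were the highest of the 3 groups. *Mvk* (1.78), mevalonate kinase, rose with it. Of 27 secretory genes of the epithelium 10 were called higher and 2 lower (10.1% and 5.8% of all genes were), and 5 were in the class that rose late. The mucin *Muc1* went from -4.40, -3.69 and -4.41 to -1.96, -1.91 and -1.70, above all saline arrays (-3.95, -3.54 and -3.65), and *Pigr* (2.19), which carries immunoglobulins across the epithelium, rose too. *Ltf*, lactotransferrin, was 1.81 higher, a call that was lost with the replicate number as a block (adjusted p = 0.0044) and without any 1 of 7 arrays (E3 24 hr replicates 2 and 3, E3 2 hr replicates 1 and 3 and the saline arrays, 1.48 to 1.93). It was also lost with normexp background correction (1.68, adjusted p = 0.0086).

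Of 25 small proline-rich protein and keratin genes, 4 were called higher and 3 lower (10.1% and 5.8% of all genes were), and 3 were in the class that rose late. *Sprr2d*, a small proline-rich protein of the cornified layer, had the largest rise of a named gene in it. It lay at -7.85, -6.80 and -7.42 at 2 hr, -3.50, -1.36 and -2.41 at 24 hr and -7.71, -6.92 and -7.31 after saline, a rise of 4.94 ± 0.516 whose size is uncertain, since the 2 hr arrays lay near the lowest measurable level (-8.15 to -7.77). The 3 arrays at 24 hr differed from each other by more than those at 2 hr. *Sprr2f* (2.73), *Sprr1a* (2.73, not called with the 6 E3 arrays fitted alone, adjusted p = 0.013), the interleukin 1 family member *Il1f8* (3.29) and the membrane protease *Tmprss4* (2.86) also rose. Of 45 collagen and matrix genes 12 were called higher and 5 lower, beside the same shares of all genes (10.1% and 5.8%). *Col1a1* lay at 4.29, 3.11 and 3.95 at 2 hr, 5.44, 5.74 and 5.51 at 24 hr and 4.36, 4.44 and 4.26 after saline, lowest on the 2 hr array with the pancreas transcripts. With the 6 E3 arrays fitted alone *Col1a1* (adjusted p = 0.0043) was not called. *Col12a1* (1.63) rose, and the proteases *Adamts4* (-4.36) and *Adamts1* (-2.84), which cut proteoglycans, fell back.

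**Figure D4:**
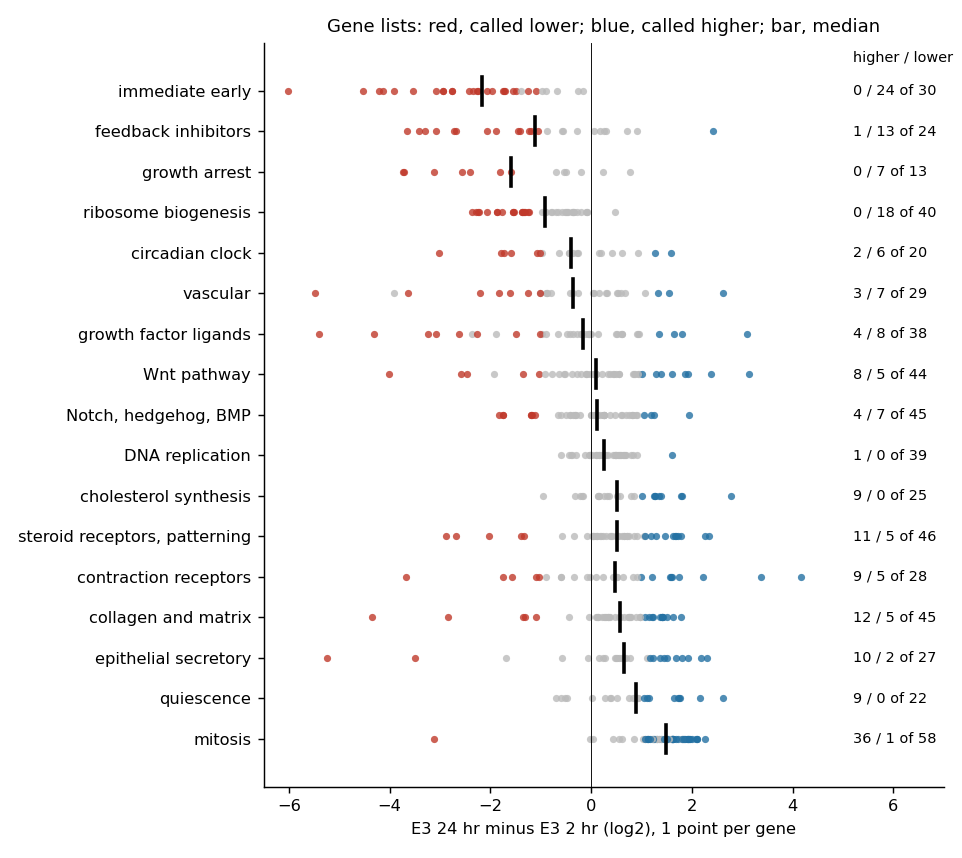
E3 24 hr minus E3 2 hr (log2) for each gene of 17 lists, 1 point per gene, with the median as a bar and the counts called higher and lower at the right. The medians are -2.16 for immediate early, -0.91 for ribosome biogenesis, 1.5 for mitosis and 0.25 for DNA replication genes, with single genes such as *Npm1* and *Mad2l1* on the other side of 0 from their list's median.

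*Crtac1*, a matrix protein, rose in both intervals. It lay at -3.67, -3.87 and -4.41 after saline, at -2.32, -2.49 and -2.65 at 2 hr and at -0.60, -0.57 and -0.96 at 24 hr, with no overlap between any pair of groups.

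The 138 probes that fell late were dim, with a median level of -4.77 at 2 hr, compared with -2.21 for all probes. At 24 hr, where the class is low by its rule, the median was -6.35. *Ano2*, a calcium-activated chloride channel, lay at -1.72, -1.57 and -2.29 at 2 hr, -4.02, -4.29 and -5.13 at 24 hr and -1.07, -1.66 and -1.34 after saline. *Kcnip2* (-2.40), which modulates potassium channels, *Galnt14* (-2.02), a mucin-type glycosyltransferase, and *Fkbp5* (-1.82, with -1.76 and, not called, -1.37 on its other probes), a chaperone of steroid receptors, also fell. *Ces3b* (-2.84), *Igfbp1* (-2.62) and *Cyp3a41a* (-2) stood among the leaders too. They are abundant in liver but were not on the liver list, and on saline replicate 1, where the liver sum was 83.9, *Ces3b* lay at -0.76 beside -2.74 and -2.76 on the other saline arrays. With the replicate number as a block, *Igfbp1* (adjusted p = 0.0045) and *Cyp3a41a* (adjusted p = 0.0043) were not called, nor were they without E3 2 hr replicate 1 or 2 or any of the 24 hr E3 arrays, nor *Cyp3a41a* without saline replicate 2. With normexp background correction all 7 genes named here lost their call. Setting further liver transcripts aside left 127 of the 138 probes, and 18 of the 129 genes on the liver list, set aside beforehand, met the same criteria.

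Of the transcripts that the study followed by PCR, all 11 of a list of early ones were called lower at 24 hr, from *Fos* (-4.53) to *Stat5a* (-1.91), with *Ppp2r2c* at -3.84. Of 5 late ones, 2 were called higher at 24 hr than at 2 hr, and all 5 were called above saline at 24 hr. That PCR was done after E2 and xenoestrogens, not after E3. The study chose the early and late transcripts for their known response to E2, so they are no independent evidence of a direction. *Igf1*, the growth factor of the stroma, which the study names but did not follow by PCR, lay at 2.36, 2.23 and 2.27 at 2 hr and at 1.29, 1.24 and 1.41 at 24 hr, beside 1.26, 1.18 and 1.03 after saline. Its difference of -0.97 ± 0.105 (adjusted p = 9e-06) missed the 2-fold cutoff although the arrays did not overlap, and passed it with normexp background correction (-1.02), without scaling (-1.04), without E3 24 hr replicate 3 (-1.02) and without E3 2 hr replicate 2 (-1). Its other probes passed it with -3.59 and -1.14, so the probes disagree on the size. Of the others, *Per1* (-0.98), *Axin1* (-0.65), *Sox8* (-0.57, with -1.34 on its other probe, which was called), *Mvp* (0.35), *Gna12* (0.24) and *Tnxb* (-0.06) were not called, although *Per1* was without E3 24 hr replicate 2 (-1.11) and without scaling (-1.05).

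The same interval under E2 shares no array with the E3 difference, although its 2 hr arrays differ in strain label, slide and scanner. Of the probes that fell back under E3, 76.3% were called lower between 2 and 24 hr of E2 (17.2% of all probes were), and of those that fell late 84.8%. Of the probes that rose late, 351 of 390 were called higher under E2 (13.9% of all were), but of those that recovered 46.5%. The difference between the compounds in their change over time was called for 5377 probes (15.5%), or 12.7% of genes.

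Counts by list were read beside that share. For immediate early genes the E2 median was -2.36 beside -2.16 for E3, and the difference was called in 4 of 30. For DNA replication it was 1.60 beside 0.25, called in 29 of 39 genes (74.4%), all lower for E3. *Mcm6* rose by 1.64 under E2 and differed by 0.29 under E3, and *Mcm2* rose by 1.54 and differed by -0.30. For mitosis the medians were 3.12 and 1.5, called in 17 of 58, and for cholesterol synthesis 1.61 and 0.51, called in 12 of 25. Ribosome biogenesis had a median of -0.15 under E2 and -0.91 under E3, called in 10 of 40 genes, each lower for E3. The 22 quiescence genes had a median of 0.00 under E2 and 0.88 under E3, called in 7, each higher for E3. *Ptch1* moved in opposite directions, 1.24 higher at 24 hr than at 2 hr of E3 and 1.30 lower (-1.30) under E2, a difference of 2.54 (adjusted p = 1.3e-04).

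**Figure D5:**
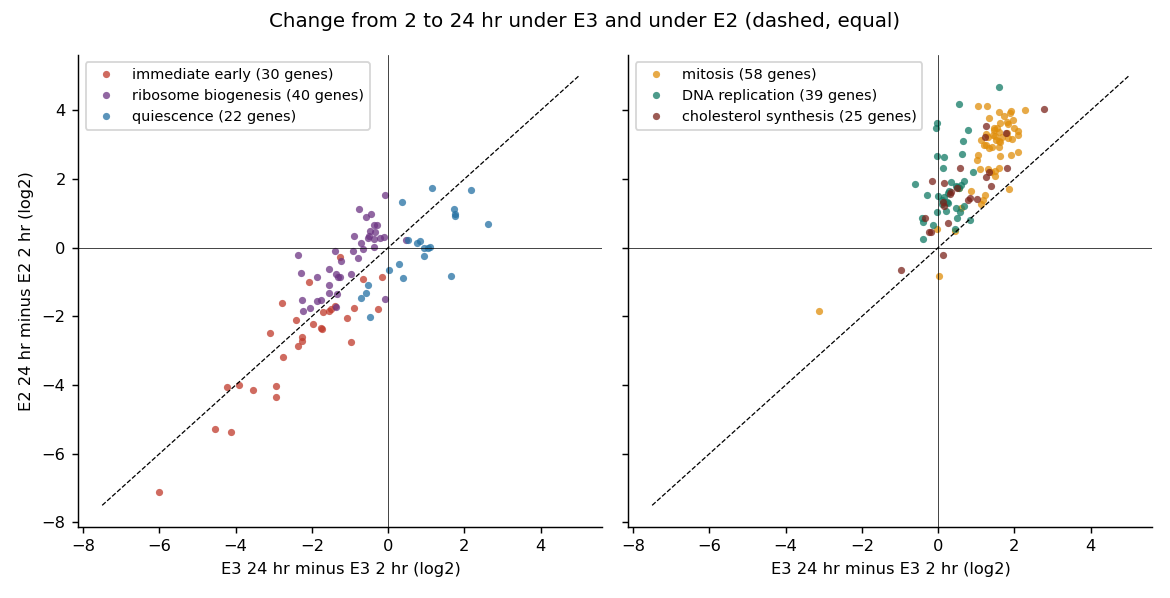
Change from 2 to 24 hr under E3 (horizontal axis, log2) against that under E2 (vertical axis, log2), 1 point per gene, for 3 lists in each panel, with the dashed line where both are equal. DNA replication genes stand near 0 for E3 and at a median of 1.60 for E2, and immediate early genes lie along the line.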

How the data were processed

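The 15 one-color Agilent mouse arrays were scanned and processed by the authors with Agilent Feature Extraction (version 9.5.3.1 per the file headers). The deposited value is the background-corrected intensity of each spot on a linear scale, with no normalization between arrays, and the series table holds the same intensity values. The flags for spots well above background, saturated spots and outlier spots are also those deposited by the authors. Probe coordinates are in mm7, per the file headers.

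Here control spots and outlier-flagged spots were dropped, spots of a probe averaged, and log2 of the signal taken minus that of the array's 75th percentile (2988.68 to 4411.89 intensity units). The share of probes well above background ran from 77.82% to 81.75%. A probe was kept if it passed that flag on 2 or more of a group's 3 arrays (34776 of 41174), and 34749 had values to be tested. Groups were compared with limma (version 3.58.1, R 4.3.3) over all 15 arrays (5 group means, 10 residual degrees of freedom). The cutoffs were p below 0.001 and at least 2-fold, with Benjamini-Hochberg adjusted p-values over all probes. A gene is represented by its brightest probe over the 6 E3 arrays. Precision is limited by the number of arrays.

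The members, the gene lists and the cutoffs were chosen with earlier results of these data known. Genes named are the transcripts the study measured by PCR and *Igf1*, leading genes of each class (of the 8 with the largest difference, well above background on 2 arrays of each E3 group, without overlap) and, in each list, genes toward either end of the differences. The latter are not always the most extreme of their list. *Zfp36*, *Maff*, *Mcm6*, *Mcm10*, *Mki67*, *Top2a*, *Gli1* and *Hhip* fall outside this rule and were chosen after their values were seen. Same-numbered E3 arrays deviated together from their group means (correlations of 0.379, 0.116 and 0.547, against -0.468 to 0.259 for arrays of different number, the highest of these for 2 hr replicate 1 with 24 hr replicate 2), so replicate number was also fitted as a block. Promoters are those of RefSeq on GRCm38.p6. Some transcripts of the lists are not reported here. The fits were tested on simulated data. Alternatives were the background correction, scaling, cutoffs, filter, probes, blocks for replicate and slide, and each array left out.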

Additional observations from a re-analysis of the deposited data

Results flagged for a closer look

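The change from 2 to 24 hr differed between E3 and E2 for 32 of the 107 genes named above (12.7% of all genes did), by limma's test of the difference between the 2 changes with the cutoffs used throughout. Many of the 107 were named for their large E3 change, so the share is not read against that of all genes. Values are the E3 change minus the E2 change on the log2 scale. The E2 arrays at 2 hr differ from the E3 arrays at 2 hr in strain label, slides and scanner, and strain, scanner and compound cannot be told apart.

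Most of these differences were lower for E3. They were largest for *Ces3b* (-4.90), a transcript abundant in liver, as is *Cyp3a41a* (-3.06). Among transcripts that fell back they were found for *Krt86* (-4.86), *Krt87* (-4.77), *Krt85* (-4.32), *Aqp8* (-3.34), *Rrp12* (-2.17), *Nolc1* (-1.54) and *Mad2l1* (-1.27), each of which fell further under E3, and with *Igf1* the value was -1.33. In the cell cycle the values were -3.63 for *Mcm10*, -3.07 for *Tk1*, -3.05 for *Top2a*, -2.41 for *Aurkb*, -2.05 for *Cdk1*, -1.84 for *Mcm2*, -1.35 for *Mcm6* and -1.15 for *Pcna*, and for each of these 8 the change under E2 was the higher 1. The same held for *Crtac1* (-3.99) and *Mvk* (-1.56), for the epithelial genes *Muc1* (-1.73), *Tmprss4* (-1.27) and *Pigr* (-1.20), and for the muscle gene *Tnni2* (-1.46).

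The difference was higher for E3 in 8 genes. *Ptch1* (2.54), *Txnip* (2.47), *Pik3ip1* (1.92) and *Fzd1* (1.29) had been repressed at 2 hr of E3. *Ano2* (2.20) and *Kcnip2* (2.03) fell between 2 and 24 hr under both compounds, as did *Maff* (1.40) and *Per2* (1.19), each by more under E2.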

How the results depend on the processing

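Most counts of called probes kept within 1.5 times of their value under the alternatives tried. Normexp background correction gave 3237 called probes (2211 higher, 1026 lower), 715 that fell back, 968 that recovered, 12 that fell late and 2549 whose change differed from that of E2. With no minimum fold the counts were 12187 (7255 higher, 4932 lower), 3077 that fell back, 4359 that recovered, 1446 that rose late, 759 that fell late and 8743 for the difference from E2. With a 4-fold minimum they were 1242 (613 and 629), 398, 369, 56, 13 and 1153, and 87 genes of the lists were called in place of 259. The transcripts that fell late numbered 210 with an adjusted p-value and 2-fold, 84 without E3 24 hr replicate 3 and 88 without replicate 3 of both E3 groups, a setting chosen after seeing the data. These changes in the cutoff loosen or tighten the call by construction, and for the others the cause was not tested.

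With 1 array left out in turn, 5177 to 5634 probes were called, 1208 to 1371 fell back, 1776 to 1973 recovered, 298 to 442 rose late, 84 to 149 fell late, and 4788 to 5401 differed from E2. With the replicate number as a block, pairing same-numbered E3 arrays, 5504 probes were called, and it moved no count of a class by over 1.5 times. Beside *Ltf*, *Igfbp1* and *Cyp3a41a*, which lost their call, and *Cyp2j5* (-1.62, adjusted p = 0.0027), which gained 1, it changed no call of a named gene between the times. With slide as a random block 5644 were called. With the 6 E3 arrays fitted alone, *Cdca3*, *Ltf*, *Tk1* and *Cyp3a41a* lost their call (adjusted p 0.0078 to 0.013), beside *Ube2c*, *Sprr1a* and *Col1a1*. Of the called probes, 59.9% were higher at 24 hr, 53.0% with quantile normalization, 52.6% without scaling and 68.3% with normexp. Among single genes, only values that were not called changed sign, *Tnxb* to 0.25 with its other probe, and *Cyp2j5* to 0.91 and *Sox8* to 0.58 with normexp. With probes of a mean signal above 100 alone, 103 fell late and 1589 recovered.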
